A study of Bos taurus with 60 samples.

Results

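SREBF1, INSIG1, PPARGC1A, KLF15, THRB and PRKAA2 are regulators of lipid and energy metabolism, and the expression of these 6 genes was followed through the dry period of the dairy cow. They are 6 of the 14714 loci tested and of the 25223 loci counted. They were chosen by name, with earlier results of these same samples known. The study's text names SREBF1, INSIG1 and PPARGC1A among upstream regulators in its comparison of D3 with D-3, and does not name KLF15, THRB or PRKAA2. Each symbol was paired with a locus through the supplementary tables, and none of the 6 loci joins several genes. Mammary biopsies came from 12 multiparous Holstein cows dried off some weeks before expected calving. A set of 6 cows was heat-stressed during the dry period (HT, shade only) and 6 were cooled (CL, shade with fans and soakers). Every cow gave a biopsy in late lactation (D-3) and on D3, D7, D14 and D25, counted from dry-off, so there were 60 libraries of 20525083 to 26183990 counts. All cows were lactating and untreated at D-3, and all were pregnant and no longer milked afterwards. Successive biopsies came from alternating glands of the udder, were trimmed of visible fat and were not sorted by cell type, so every value is a mixture of cells. KRT19, a luminal keratin, and the milk protein genes had reads in every library. In such tissue, fewer cells of a type and less RNA per cell cannot be told apart.

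SREBF1 encodes SREBP-1, a membrane-bound transcription factor that is cut free in the Golgi and then turns on genes of fatty acid and triglyceride synthesis. INSIG1 encodes an endoplasmic reticulum protein that holds SREBPs back when sterols are plentiful and is itself an SREBP target. PPARGC1A encodes PGC-1 alpha, a coactivator of mitochondrial and oxidative genes, and KLF15 encodes a glucocorticoid-responsive zinc finger factor of amino acid and lipid use. THRB encodes a nuclear receptor for thyroid hormone, and PRKAA2 encodes the alpha 2 catalytic subunit of AMPK, the kinase that senses cellular energy shortage and phosphorylates acetyl-CoA carboxylase. In the lactating gland, milk fat synthesis relies on the SREBP-1 programme, and it is shut down when milking stops.

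Some libraries stood apart. The D14 and D25 libraries labelled HT cow 8513 deviated from their group mean as the earlier libraries of HT cow 8660 did (mean r over loci of 0.46 and 0.55), and not as those of 8513 itself (-0.17 and -0.03). For those labelled 8660, r was 0.32 and 0.41 with the earlier libraries of 8513 and 0.11 and 0.13 with its own. Exchanging these cows at both days changed no call of the within-cow tests, and values without them are given where they differ. The D14 library of CL cow 7965 was nearly without keratin reads and is described with the correlations.

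Transcripts of all 6 regulators fell between D-3 and D3, by 1.06 (SREBF1) to 2.72 (INSIG1) on the log2 scale. No regulator passed edgeR's threshold in any later step between neighbouring time points. From D-3 to D25 the fall was called for 5 of them, while SREBF1 stayed above the FDR threshold of 0.05. No regulator was called between HT and CL. Levels below are TMM-scaled CPM, the reads of a gene relative to its library's total over the tested loci, multiplied by the library's TMM factor. CPM by library size alone, used where named, leaves this factor out. Log2 fold changes carry their SE, and FDR is the Benjamini-Hochberg adjusted p of edgeR's quasi-likelihood F-test over all 14714 loci. In D3 vs. D-3, 9.04% of the loci tested were called lower. This was the contrast in which the study named SREBF1, INSIG1 and PPARGC1A, and all 6 genes were chosen with earlier results known. Their count there is thus a description and not independent evidence.

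**Figure D1:**
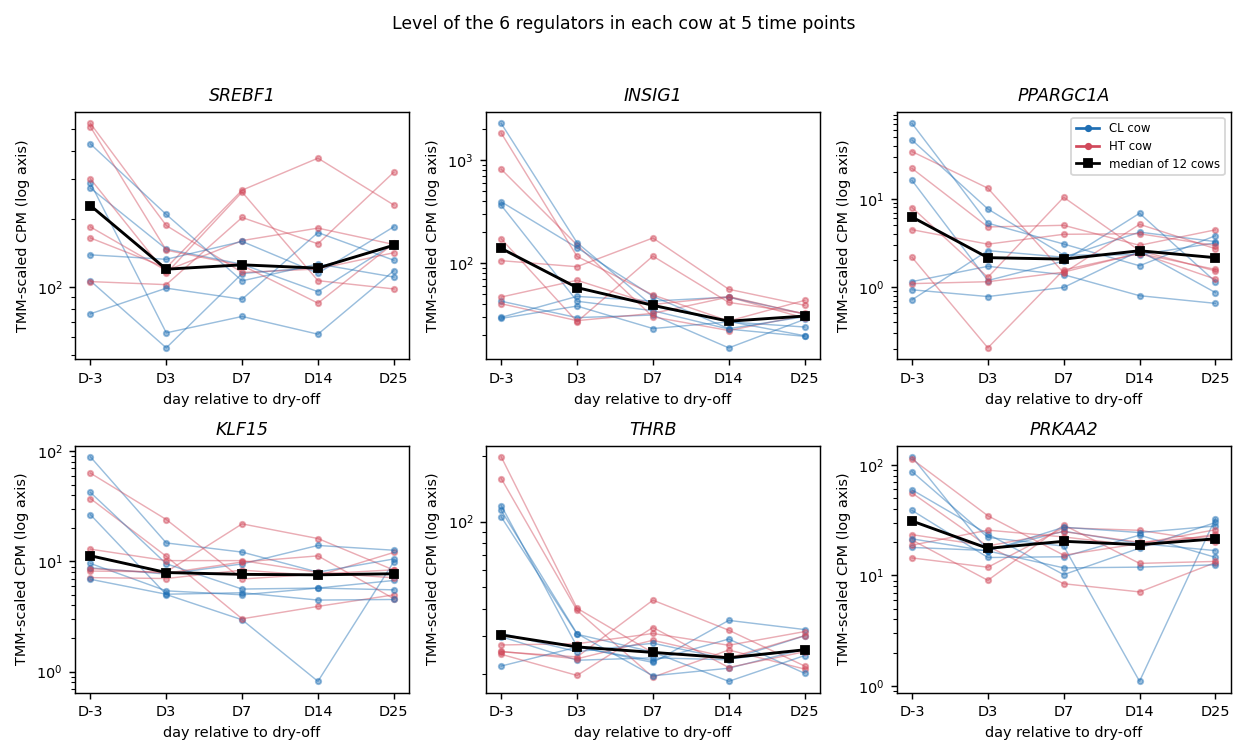
TMM-scaled CPM (log axis) of the 6 regulators against the day relative to dry-off. Thin lines are the 12 cows (blue CL, red HT) and black squares their median. All 6 medians are lower at D3 than at D-3, and the SD of log2 CPM between cows is widest at D-3 for INSIG1, PPARGC1A, KLF15, THRB and SREBF1, although KLF15 spans the widest range at D14 (0.816 to 16.2).

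SREBF1, the lipogenic transcription factor, ranged over the 12 cows at D-3 from 76.0 to 530.3 CPM with a median of 229.2. At D3 the range was 53.6 to 209.4 CPM, with a median of 119.8. The level was lower at D3 than at D-3 in 11 of 12 cows, and the cow ranges overlapped. The log2 fold change in D3 vs. D-3 was -1.06 ± 0.27 (SE; FDR = 0.00465). The mean within-cow difference was -0.89 ± 0.77 (SD, n = 12; two-sided exact sign-flip test, p = 0.00244). Medians of 125.2 CPM at D7, 121.1 at D14 and 153.0 at D25 followed. At D25 it was above the D3 level in 9 of 12 cows, but this difference of 0.39 ± 0.27 was not called (FDR = 0.397). Against D-3, the log2 fold changes were -0.79 at D7 (FDR = 0.0528), -0.86 at D14 (FDR = 0.0184) and -0.67 at D25 (FDR = 0.0846). With the cow as a block, D7 vs. D-3 passed the threshold (FDR = 0.0361). The D14 call was lost when any of cows 7965, 8541, 8564, 8647 or 8713 was left out, with log2 fold changes of -0.77, -0.69, -0.80, -0.76 and -0.68.

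INSIG1, the SREBP brake, had the largest log2 fold change of the 6 in edgeR, while within cows the mean change of PPARGC1A in D3 vs. D-3 (-1.46) was slightly larger than that of INSIG1 (-1.43). At D-3 it lay between 28.8 and 2264.5 CPM with a median of 138.0. The D3 median was 57.4 CPM and the D7 median 38.6. D14 followed with 27.0 CPM and D25 with 30.4, and the 12 cows at D25 spanned only 19.3 to 43.1 CPM. The highest value at D25 was thus below the highest value of every earlier time point, while the lowest values lay between 14.9 and 28.8 CPM on all days. edgeR gave -2.72 ± 0.51 in D3 vs. D-3 (FDR = 0.000197) and -4.09 ± 0.54 in D25 vs. D-3 (FDR = 1.87e-06). Within cows INSIG1 was lower at D3 than at D-3 in 9 of 12 and higher in 3, with a mean of -1.43 ± 1.72 and a median of -1.01 (SD, n = 12; two-sided exact sign-flip test, p = 0.0186). INSIG1 was lower at D25 than at D3 in 10 of 12 cows, by 1.11 ± 1.01 on average (SD, n = 12; two-sided exact sign-flip test, p = 0.00342). In the fit over all loci this later decline was -1.38 ± 0.49 and was not called (FDR = 0.0769), whereas DESeq2 (adjusted p = 0.0409), tagwise dispersions (FDR = 0.038) and a fit of the D3 and D25 samples alone (FDR = 0.00676) called it. The fit with the cow as a block gave -1.08 and did not call it (FDR = 0.11). In D25 vs. D3, 6.02% of the loci were called in either direction.

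PPARGC1A, the coactivator, was lowly counted, with 5 to 713 reads per library. It ranged at D-3 from 0.716 to 71.8 CPM with a median of 6.23, and at D3 from 0.204 to 13.2 CPM with a median of 2.15. The level was lower at D3 in 9 of 12 cows, and the ranges overlapped. edgeR gave a log2 fold change of -2.28 ± 0.57 in D3 vs. D-3 (FDR = 0.00397), although a fit of the D-3 and D3 samples alone did not call it (FDR = 0.0671). Medians stayed between 2.07 and 2.58 CPM from D3 to D25. D25 vs. D-3 gave -2.92 ± 0.58 (FDR = 0.00053), and the level was lower at D25 in 10 of 12 cows.

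KLF15, the glucocorticoid-responsive factor, was the regulator that was lower at D3 in all 12 cows after TMM scaling. Its D-3 range was 6.89 to 89.1 CPM with a median of 11.3, and its D3 range 5.01 to 24.0 CPM with a median of 7.94. Several cows changed little, since the within-cow differences ran from -2.59 to -0.02 on the log2 scale. In edgeR it differed by -1.46 ± 0.37 (FDR = 0.00504), and the exact sign-flip test over 12 cows gave its smallest possible p of 0.000488. By library size alone KLF15 was lower in 4 of the 5 cows with the highest milk protein share at D-3 and in 5 of the other 7. Medians then held at 7.57 to 7.73 CPM through D25. In D25 vs. D-3 the log2 fold change was -1.74 ± 0.38 (FDR = 0.00131), with 9 of 12 cows lower.

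THRB, the thyroid hormone receptor, went from a range of 21.8 to 197.5 CPM at D-3 (median 30.3) to 19.8 to 40.1 CPM at D3 (median 26.7). The log2 fold change was -1.37 ± 0.25 (FDR = 0.000132), with 10 of 12 cows lower. The medians lay close together, and the means, 73.0 and 28.1 CPM, lay farther apart. From D7 to D25 its medians were 23.8 to 25.9 CPM. Over this time THRB had the lowest spread between cows among the 6 regulators, with an SD of log2 CPM of 0.22 to 0.33 against 1.24 at D-3. D25 vs. D-3 gave -1.47 ± 0.25 (FDR = 4.92e-05), and 8 of 12 cows were lower.

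PRKAA2, the AMPK catalytic subunit, ranged from 14.4 to 118.1 CPM at D-3 (median 31.1) and from 9.04 to 34.7 CPM at D3 (median 17.6). It was lower at D3 in 11 of 12 cows, and the ranges overlapped. In edgeR the log2 fold change was -1.36 ± 0.31 (FDR = 0.00177). Medians of 20.4, 19.0 and 21.4 CPM followed at D7, D14 and D25. The log2 fold change in D25 vs. D-3 was -1.21 ± 0.31 (FDR = 0.00636), with 9 of 12 cows lower.

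Between neighbouring time points after dry-off, 0 of the 6 regulators were called by edgeR. Of all loci, 2.92% were called in D7 vs. D3, 0.0% in D14 vs. D7 and 0.0612% in D25 vs. D14. The regulators' log2 fold changes ran from -0.50 (INSIG1) to 0.27 (SREBF1) in D7 vs. D3, from -0.72 (INSIG1) to 0.09 (PPARGC1A) in D14 vs. D7 and from -0.47 (PPARGC1A) to 0.33 (PRKAA2) in D25 vs. D14. None of these values reached an unadjusted p under 0.05 in edgeR, and DESeq2 called none of them either. Within cows, INSIG1 was lower at D14 than at D7 in 8 of 12 cows, by 0.54 ± 0.71 on average (SD, n = 12; two-sided exact sign-flip test, p = 0.0259, unadjusted), and p was 0.0356 with cows 8513 and 8660 exchanged. SEs of 0.25 to 0.55 set what these steps could show. Relative to D-3, regulators called lower numbered 5 of 6 at D7, 6 of 6 at D14 and 5 of 6 at D25, where 7.12%, 11.3% and 9.16% of all loci were called lower. At D7, PRKAA2 was lower than at D-3 in 6 of 12 cows and higher in 6. THRB was lower in 7 of 12 (two-sided exact sign-flip test, p = 0.0542), as was PPARGC1A (two-sided exact sign-flip test, p = 0.0596). At D14, SREBF1 was lower in 8 of 12 (two-sided exact sign-flip test, p = 0.0845), as was PPARGC1A (two-sided exact sign-flip test, p = 0.122). The unadjusted exact sign-flip p was under 0.05 for INSIG1, KLF15 and PRKAA2 on both days and for THRB at D14. With the samples of the 2 days alone, 0 regulators were called at D7, and SREBF1 was lost at D14. Of all loci, 0 were then called lower at D7 and 552 at D14, against 1048 and 1658 in the main fit. Library size scaling ended 4 of the calls at D7, 4 at D14 and 2 at D25. It left 18, 167 and 185 of all loci called lower at D7, D14 and D25. These 3 comparisons share the D-3 samples with D3 vs. D-3 and are not separate evidence.

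After TMM scaling the regulators' fall was unevenly divided among the cows. For THRB and KLF15 it was larger, without overlap, in the cows rich in milk protein transcripts at D-3. At D-3 the transcripts of LALBA, CSN1S1 and CSN2 took 40.2% to 49.8% of all counts in 5 cows (CL cows 7965, 8564 and 8647, HT cows 8541 and 8713) and 0.19% to 8.03% in the other 7. These are not groups of the study, the division was seen in the data, and no test between them was made. THRB lay at 105.0 to 197.5 CPM in the 5 milk-rich cows and at 21.8 to 30.9 CPM in the other 7. INSIG1 lay at 362.2 to 2264.5 against 28.8 to 171.2 CPM, and PPARGC1A at 16.2 to 71.8 against 0.716 to 7.98 CPM. For KLF15 the ranges were 26.6 to 89.1 and 6.89 to 12.9 CPM, and for PRKAA2 55.7 to 118.1 and 14.4 to 38.8 CPM. On the TMM scale these 5 regulators had D-3 ranges that did not overlap between the milk-rich cows and the rest. The share of all loci that separated these cows in the same way was not counted, so the separation is not shown to be particular to the regulators. With CPM by library size alone, THRB was the one whose ranges stayed apart, at 37.5 to 59.1 against 25.8 to 36.3 CPM. The ranges of INSIG1 (151.7 to 756.4 and 33.9 to 176.7 CPM), PPARGC1A (6.78 to 28.2 and 0.859 to 8.11 CPM), KLF15 (11.1 to 34.9 and 8.12 to 14.2 CPM) and PRKAA2 (19.9 to 46.3 and 14.6 to 46.5 CPM) overlapped on that scale. SREBF1 ranges overlapped after TMM scaling too, at 274.1 to 530.3 against 76.0 to 301.1 CPM.

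**Figure D2:**
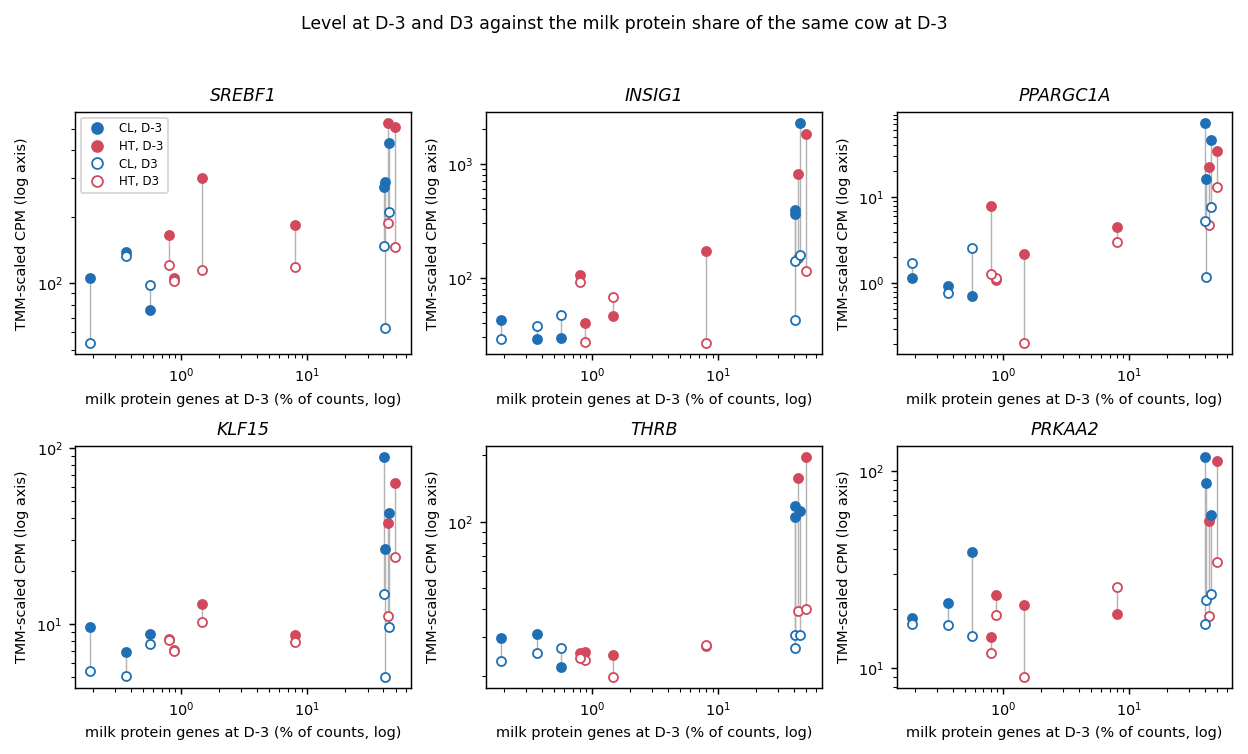
Level of each regulator at D-3 (filled) and D3 (open) in TMM-scaled CPM, plotted against the share of the cow's D-3 counts taken by LALBA, CSN1S1 and CSN2 (both axes logarithmic, blue CL, red HT, a grey line joins the points of a cow). The 5 cows at 40.2% to 49.8% hold the highest D-3 levels of every regulator except SREBF1 on this TMM scale, where CPM by library size leaves THRB alone without overlap, and THRB in the other 7 cows stays between 19.8 and 30.9 on both days.

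In the 5 milk-rich cows every regulator was lower at D3 than at D-3 after TMM scaling. By library size alone THRB and INSIG1 were lower in 5 of 5 of these cows. PPARGC1A, KLF15 and PRKAA2 were lower in 4 of 5 and SREBF1 in 3 of 5. In the other 7 cows SREBF1 and PRKAA2 were lower in 6, KLF15 in 5, and INSIG1, PPARGC1A and THRB in 4 on that scale. THRB alone had differences that stayed apart on that scale, at -0.85 to -0.48 against -0.39 to 0.25. On the TMM scale THRB differed by -2.30 to -1.78 on the log2 scale in the milk-rich cows. In the other 7 cows it differed by -0.36 to 0.29 and was lower in 5. KLF15 differed by -2.59 to -1.40 and by -0.82 to -0.02. INSIG1 differed by -3.98 to -1.48 and by -2.68 to 0.68, the lowest of the latter being HT cow 8668, whose milk share at D-3 was 8.03%. PRKAA2 and SREBF1 were lower in 6 of the other 7 cows as well, by up to 1.41 and 1.39, and whether their fall differed between the cows was not tested. By D25 the levels of THRB were 21.2 to 32.1 CPM in the milk-rich cows and 20.2 to 31.4 CPM in the rest, and the 2 sets of cows could no longer be told apart by it. The part of milk protein content in these differences was not tested.

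Scaling moved these values. TMM factors at D-3 were 0.30 to 0.42 in the milk-rich cows, against 1.02 to 1.21 in the rest. With counts scaled by library size alone, the median of all loci rose by 0.35 in D3 vs. D-3 and by 0.41, 0.43 and 0.48 in D7, D14 and D25 vs. D-3. On that scale THRB (-0.39, FDR = 0.0206) and INSIG1 (-1.43, FDR = 0.00728) were still called lower at D3 by edgeR, and SREBF1 (-0.35), KLF15 (-0.50), PRKAA2 (-0.50) and PPARGC1A (-1.13) were not. Relative to the shifted median the 6 values were -0.70 (SREBF1), -0.74 (THRB), -0.85 (KLF15), -0.85 (PRKAA2), -1.48 (PPARGC1A) and -1.78 (INSIG1). SREBF1 turned to 0.0117 at D7 and 0.22 at D25 vs. D-3 on the unshifted scale, so the direction of its later change depended on the scaling.

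Within the 7 cows with a low milk share, no correlation of the D-3 level with the milk share passed a permutation test. Pearson's r with the log2 share was 0.75 for INSIG1 (exact permutation test, p = 0.0857), with Spearman's rho of 0.64 (exact permutation test, p = 0.139), and 0.46 over the 5 cows left without the cows farthest from the median. For the other regulators r ran from -0.23 (THRB) to 0.57 (PPARGC1A), and the smallest permutation p of r among them was 0.236. Over 5 cows, without those farthest from the median, r ran from -0.45 (THRB) to 0.76 (KLF15, from 0.16 over 7 cows). No r over all 12 cows is given, since the cows fell into separate clusters.

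The SREBP axis is the part of the pathway with most genes paired to a locus. Of 15 lipogenic targets of SREBP-1 on the list used here, 7 could be paired, and all 7 were called lower in D3 vs. D-3. The supplementary tables that gave the pairing are ordered by tests on these samples, so paired genes are not an unbiased draw from the list. Of all loci tested, 9.04% were called lower in D3 vs. D-3 and 9.16% in D25 vs. D-3. The share called among all paired loci was not counted, so the counts of called targets are a description. The same limits hold for the lists that follow. The largest falls were those of SCD, the stearoyl-CoA desaturase (-4.58 ± 0.73, FDR = 2.3e-05), GPAM, which starts glycerolipid synthesis (-4.07 ± 0.54), and FADS1, a fatty acid desaturase (-3.03 ± 0.50). FASN (-2.99) and ACACA (-1.98), the fatty acid synthase and the acetyl-CoA carboxylase that AMPK phosphorylates, fell too. The median of the 7 was -2.99, beside -0.01 over all loci. All 7 were also lower in D25 vs. D-3.

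Of 21 cholesterol synthesis and uptake genes of the SREBP-2 list, 13 were paired and 12 were called lower in D3 vs. D-3, with a median of -1.19. HMGCS1 (-1.64), HSD17B7 (-1.39) and IDI1 (-1.38), enzymes of sterol synthesis, had the largest falls. FDFT1, the squalene synthase, was at -0.16 (FDR = 0.604) in D3 vs. D-3 and was called lower in D25 vs. D3 (-0.92). By D25 vs. D-3 all 13 were called lower, with a median of -1.62. SREBF2, the closest relative of SREBF1 and the main regulator of sterol genes, was at -0.16 ± 0.16 in D3 vs. D-3 (FDR = 0.545), while SREBF1 was at -1.06. SREBF2 was called lower later, in D25 vs. D-3 (-0.69, FDR = 0.0021) and D25 vs. D3 (-0.53, FDR = 0.0294). SYVN1, a ubiquitin ligase of the endoplasmic reticulum, fell by 1.68 in D3 vs. D-3. Of the 9 SREBP processing partners listed, SREBF2 and SYVN1 were the 2 that could be paired.

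**Figure D3:**
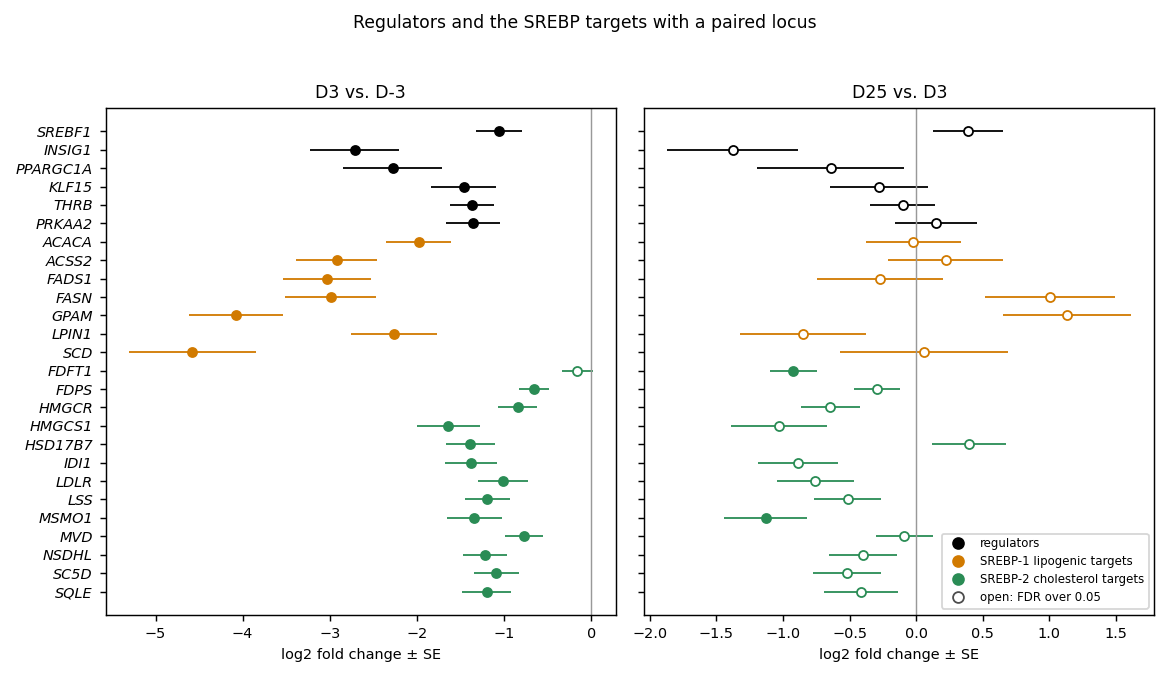
Log2 fold change ± SE of the 6 regulators (black), the 7 paired SREBP-1 lipogenic targets (orange) and the 13 paired SREBP-2 cholesterol targets (green) in D3 vs. D-3 (left) and D25 vs. D3 (right), from edgeR. Filled points have an FDR of at most 0.05. In D3 vs. D-3 every point but FDFT1 is filled and below 0. In D25 vs. D3 only FDFT1 and MSMO1 are filled, and SREBF1, GPAM and FASN lie above 0 while INSIG1 and most sterol genes lie below it.

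In D25 vs. D3, SREBF1 was at 0.39 and INSIG1 at -1.38, both short of the threshold, and the difference between the genes was not tested. The SREBP-1 targets had a median of 0.06 and the SREBP-2 targets of -0.52, beside 0.02 over all loci. GPAM (1.13) was the highest of the SREBP-1 list, followed by FASN, and LPIN1 (-0.85) the lowest, none of them called. Among SREBP-2 targets, FDFT1 and MSMO1, a sterol oxidase (-1.13, FDR = 0.0193), were called lower.

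Partners of the other regulators were seldom paired. PPARA, a nuclear receptor coactivated by PGC-1 alpha, fell by 0.85 in D3 vs. D-3 and was the only gene paired of 10 in its list. Of 16 mitochondrial and fatty acid oxidation genes, 5 were paired. CPT1A, which admits fatty acids to mitochondria, rose by 0.93 ± 0.25 (FDR = 0.00841) and IDH3A, a Krebs cycle enzyme, rose by 0.62. NDUFS1, of respiratory complex I, fell by 0.53, and CPT1B (0.17) and PDK4 (0.94) were not called. The locus of CPT1B joins 2 genes, so its value is not that of CPT1B alone. PPARG, the adipogenic receptor and the only gene paired of 7 other lipogenic factors, fell by 0.94. Of 10 AMPK genes only PRKAB1, a regulatory beta subunit, was paired, and it fell by 0.59.

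Around KLF15, the 4 paired of 12 KLF family genes did not share its direction. KLF6 (0.79) and KLF10 (0.66) rose in D3 vs. D-3, and KLF3 (0.06) and KLF7 (0.25) were not called. KLF6 and KLF3 then fell in D7 vs. D3, by 1.01 and 0.37. The glucocorticoid receptor NR3C1 fell by 0.65 and its target PER1 by 0.79. BCKDHA and BCKDHB, the E1 subunits of branched-chain keto acid dehydrogenase, fell by 0.80 and 0.67. Around THRB, DIO2, the deiodinase that makes active thyroid hormone, fell by 2.18 ± 0.43 in D3 vs. D-3 (FDR = 0.000345) and was the only gene paired of 12. The relatives INSIG2, PPARGC1B, KLF9, THRA and PRKAA1 could not be paired and were not analysed here.

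HT and CL cows were compared to ask whether heat stress during the dry period changes the gland. At D-3, before treatment, the regulators differed by -0.94 (PPARGC1A) to 0.46 (SREBF1) on the log2 scale, with SEs of 0.49 to 1.20, and none was called. No regulator was called after dry-off either. The share of all loci called by edgeR was 0.0% at each of the 5 time points. At an unadjusted p under 0.05, 298 (2.03%), 97 (0.659%), 672 (4.57%), 247 (1.68%) and 333 (2.26%) loci were found at the 5 time points in order of time. DESeq2 called 3 loci at D7 and 1 at D25, and no regulator.

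**Figure D4:**
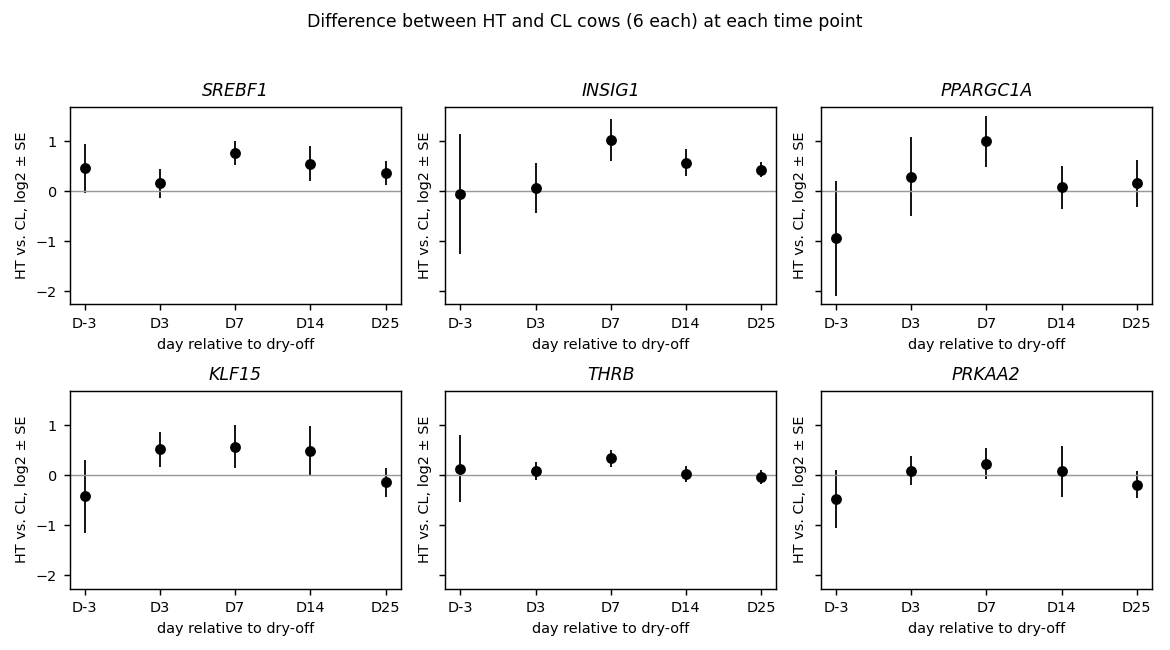
Difference between HT and CL cows in each regulator on the log2 scale, ± SE, at the 5 time points (6 cows per treatment). At D7 all 6 points lie above 0, from 0.24 (PRKAA2) to 1.03 (INSIG1), and at D-3 the error bars are the widest for INSIG1 and PPARGC1A.

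At D3, D7 and D14 the edgeR difference between HT and CL was above 0 for all 6 regulators, and at D25 for 3 of them. Before treatment, at D-3, it was above 0 for 2 of 6. The share of all loci above 0 was not counted. At D3 the differences ran from 0.06 (INSIG1) to 0.52 (KLF15), although mean log2 CPM of PPARGC1A and PRKAA2 was lower in HT cows. The median over all loci was -0.00295 at D3, -0.00251 at D7 and -0.00722 at D14. At D14 the differences ran from 0.03 (THRB) to 0.58 (INSIG1), and at D7 2 regulators had an unadjusted edgeR p under 0.05. SREBF1 at D7 ran from 115.8 to 268.4 CPM in HT cows (median 181.7) and from 73.9 to 159.0 CPM in CL cows (median 110.5). The groups overlapped, and 4 HT cows lay above the highest CL cow. The difference was 0.76 ± 0.24 on the log2 scale (unadjusted edgeR p = 0.00708, FDR = 0.959; exact permutation test over 12 cows, p = 0.0238). The study's less stringent threshold asks for an unadjusted p no larger than 0.005 and a log2 difference of 0.5 or more, and SREBF1 missed it on p. INSIG1 at D7 ran from 29.8 to 174.3 CPM in HT cows (median 44.0) and from 23.0 to 47.3 in CL cows (median 36.0). Its difference of 1.03 ± 0.42 (unadjusted edgeR p = 0.0302, FDR = 0.959; exact permutation test, p = 0.177) was led by HT cows 8513 (174.3 CPM) and 8668 (116.2 CPM). PPARGC1A (1.002), KLF15 (0.57), THRB (0.34) and PRKAA2 (0.24) had unadjusted p of 0.0626 and above.

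HT cow 8513 stood out at D7. Its milk protein share was 14.5% of counts, against 0.0067% to 4.24% in the other 5 HT cows and 0.063% to 1.96% in CL cows. Its PPARGC1A (10.4 CPM), KLF15 (22.0 CPM) and THRB (43.7 CPM) were the highest of that day, as were its INSIG1 and SREBF1. Without this cow the HT vs. CL differences at D7 were 0.64 for SREBF1, 0.57 for INSIG1, 0.44 for PPARGC1A, 0.18 for KLF15, 0.21 for THRB and 0.15 for PRKAA2, with edgeR p of 0.0194 for SREBF1 and of 0.118 and above for the others. Without both 8513 and 8660 the differences were 0.44 for SREBF1, 0.66 for INSIG1, 0.59 for PPARGC1A, 0.0618 for KLF15, 0.13 for THRB and -0.0113 for PRKAA2, with edgeR p of 0.0695 for SREBF1 and of 0.0947 and above for the others. The median milk share at D7 was 2.80% in HT and 0.259% in CL cows, and its part in these differences was not tested. The SREBP-1 targets were higher in HT cows at D7 in 7 of 7, with a median of 0.89, and none was called. The SREBP-2 targets were higher in 13 of 13, with a median of 0.0854, also without a call. Over all loci the median at D7 was -0.00251. At D14 the counts were again 7 of 7 and 13 of 13, and at D25 they were 3 of 7 and 13 of 13. These targets were not examined without cow 8513.

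At D25 INSIG1 ran from 29.1 to 43.1 CPM in HT cows and from 19.3 to 31.8 CPM in CL cows. The groups overlapped in a narrow band, with medians of 32.0 and 26.0 CPM. KRT19 had a median of 566.4 CPM in HT and 430.5 CPM in CL cows on that day, and the milk protein share a median of 0.84% and 0.36%, and their part was not tested. The INSIG1 difference was 0.43 ± 0.15 (edgeR p = 0.0135, FDR = 0.997; exact permutation test, p = 0.0152). INSIG1 was also the regulator closest to a difference at D14, at 0.58 ± 0.28 (unadjusted edgeR p = 0.0576; exact permutation test, p = 0.106). Of 24 exact permutation tests on levels after dry-off, SREBF1 at D7 and INSIG1 at D25 were the 2 with p under 0.05, and these p-values are unadjusted. The change from D-3 differed between HT and CL cows in none of 24 exact permutation tests, whose smallest p was 0.16. In the fit of the interaction, 0.0% of loci were called at each of the 4 days after dry-off, and the smallest unadjusted p of a regulator was 0.0891, for PPARGC1A at D7 (1.94 ± 1.12). SEs of the interaction were 0.51 to 1.12, which limits the differences in change that could be detected.

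Among the 48 libraries after dry-off, the regulators varied together only in part. Pearson's r of log2 CPM between pairs of regulators ran from -0.08 (PPARGC1A with PRKAA2) to 0.57 (INSIG1 with KLF15). These libraries come from 12 cows sampled 4 times each, and r is a description over samples that share cows and days. The CL cow 7965 at D14 had almost no reads of the epithelial keratins, with KRT19 at 3.36 and KRT5 at 6.58 CPM against at least 231.4 and 119.0 CPM in the other 11 D14 libraries, and 5396.1 CPM of the fibroblast gene DCN against 561.1 to 1559.1. PRKAA2 (1.10 CPM) and KLF15 (0.816 CPM) were lowest there of all 60 libraries, and PPARGC1A (6.86 CPM) and THRB (35.3 CPM) were the highest of D14. Without that library the r of PRKAA2 with THRB went from 0.24 to 0.62, and that of KLF15 with PRKAA2 from 0.57 to 0.26.

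The genes most like each regulator over the 48 libraries were sought among 3143 other loci with a symbol. For SREBF1 they were SLC35C1 (r = 0.87), DHRS11 (0.83) and ACSS2 (0.83), the last an acetyl-CoA synthetase of the SREBP-1 list. For INSIG1 they were PTHLH (0.83), PIEZO1 (0.83) and RNH1 (0.81). PTHLH encodes the parathyroid hormone-related protein of the mammary gland, and PIEZO1 a stretch-gated channel. HERC6 (0.77), HPGD (0.68) and DNAJC12 (0.67) were closest to PPARGC1A. BHLHA15 (0.76), a factor of secretory cells, SLC7A4 (0.76) and CASZ1 (0.75) were closest to KLF15. For THRB these were RAB18 (0.76), RETSAT (0.75) and ZCCHC17 (0.74), and for PRKAA2 NUDT12 (0.90), RASEF (0.86) and PIK3C2G (0.85). Without the D14 library of cow 7965, the closest genes became HLF (0.80) for THRB, TMEM64 (0.69) for KLF15 and RORA (0.90) for PRKAA2, and SLC35C1, PTHLH and HERC6 stayed closest to SREBF1, INSIG1 and PPARGC1A.

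Markers of cell types moved over the same days. Of 46 marker genes listed for 8 classes, 13 could be paired, and none of the leukocyte list. KRT19 was at 0.52 in D3 vs. D-3 (FDR = 0.333) and was called lower in D25 vs. D3 (-1.24, FDR = 0.0192). The myoepithelial markers ACTA2 (0.81) and KRT5 (1.01) rose in D3 vs. D-3, and MYLK (0.42) was not called. The adipocyte marker FABP4 fell by 1.71 and ADIPOQ (-0.84) was not called, the endothelial KDR fell by 0.95, and fibroblast DCN (0.12) was not called. MYH2, a skeletal muscle myosin, rose by 2.95, while MYH7, the other paired muscle marker, was not called. MYH7 had a median of 0.33 CPM at D-3 and 0.23 CPM at D3. The muscle markers summed to at most 16.7 CPM in any library. Over the 48 libraries after dry-off, KRT19 had r = 0.56 with INSIG1, 0.69 with KLF15, 0.56 with PRKAA2, 0.39 with SREBF1, 0.01 with THRB and -0.02 with PPARGC1A. One library decided part of this. Without the D14 library of cow 7965 the r with KRT19 was -0.12 for PRKAA2, 0.47 for KLF15, 0.78 for INSIG1, 0.28 for SREBF1, 0.35 for THRB and 0.28 for PPARGC1A. Over the 48 libraries CSN2 had r between 0.26 (PPARGC1A) and 0.72 (SREBF1). Some markers of other classes had r of similar size. INSIG1 had r = 0.70 with MYLK, 0.47 with ACTA2 and 0.36 with KRT5. Of the muscle markers, it had r = 0.64 with MYH2 and -0.31 with MYH7. PRKAA2 had r = -0.70 with DCN. Without the D14 library of cow 7965, INSIG1 had 0.73 with MYLK, 0.55 with ACTA2 and 0.38 with KRT5. It then had 0.63 with MYH2 and -0.31 with MYH7, and PRKAA2 had -0.43 with DCN. The part of cell composition in the regulators' differences was not tested.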

How the data were processed

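Counts were taken as the authors deposited them, as whole reads per locus without normalization. The authors trimmed single-ended reads (Trim Galore 0.4.1), mapped them (TopHat2 2.0.13), assembled loci (Cufflinks 2.2.1) and counted unique reads with HTSeq. The paper names the bosTau7 build and the submitters' processing notes UMD3.1, so no coordinates are given. Loci with at least 1 CPM in 6 of 60 samples were tested.

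Time points were compared in edgeR 4.0.16 (R 4.3.3; TMM, trended dispersions, quasi-likelihood F-test) with a mean for each of 5 time points over 60 samples. HT and CL were compared in the 12 samples of each day, and the interaction with 10 group means. Single genes were tested on log2 CPM (prior count 2) by 48 two-sided exact sign-flip tests (smallest p 0.000488) and 54 two-sided exact permutation tests, unadjusted. Same-numbered samples come from the same cow (mean r of deviations 0.29, against -0.06 between cows), and a fit with the cow as a block was an alternative, as were DESeq2 1.42.0 and other scalings, filters and samples. The edgeR fits of D3 vs. D-3, of HT vs. CL at D7 and of the interaction at D7 were checked on simulated counts. These counts held no cow effect and no shift in milk protein share, and the other tests were not checked in this way. Python 3.11.15, scipy 1.17.1 and matplotlib 3.10.9 served for the rest.

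Members and lists were chosen with earlier results of these data known. Symbols came from supplementary tables held in part. Named genes are the 6 regulators, up to 3 called genes up and 3 down of each list in D3 vs. D-3, the closest relative of each regulator, and the 3 loci most correlated with each. FASN, ACACA, LPIN1, MSMO1, FDFT1, KLF3, KLF7, CPT1B, PDK4 and the cell type markers fall outside this rule and were chosen after their values were seen. One gene of the SREBP-2 list is not reported here.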

Additional observations from a re-analysis of the deposited data

Results flagged for a closer look

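Among 60 groups of 6 samples (6 regulators, 2 treatments, 5 days), 2 single values lay far from the other 5 of their group by Dixon's 95% criterion, where chance alone flags about 1 in 20 groups, or 3 here. KLF15 was at 24.0 CPM in HT cow 8713 at D3, and at 7.00 to 11.1 CPM in the other 5 HT cows. This cow had the highest milk protein share of all cows at D-3, 49.8% of counts. PRKAA2 was at 1.10 CPM, from 23 reads, in CL cow 7965 at D14, and at 11.9 to 24.4 CPM in the other 5 CL cows. The same library had KRT19 at 3.36 CPM and DCN at 5396.1 CPM.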

How the results depend on the processing

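Scaling by library size alone was the choice that mattered most. It ended the call in D3 vs. D-3 for SREBF1 (-0.35), PPARGC1A (-1.13), KLF15 (-0.50) and PRKAA2 (-0.50), in D7 vs. D-3 for PPARGC1A (-1.24), KLF15 (-0.62), THRB (-0.38) and PRKAA2 (-0.40), in D14 vs. D-3 for SREBF1 (-0.0168), PPARGC1A (-1.11), KLF15 (-0.66) and PRKAA2 (-0.57), and in D25 vs. D-3 for KLF15 (-0.57) and PRKAA2 (-0.20). It turned SREBF1 to 0.0117 in D7 vs. D-3 and 0.22 in D25 vs. D-3, and THRB to 0.0555 in D25 vs. D3. These values include the shift of the median of all loci, 0.35 to 0.48 against D-3 and 0.15 in D25 vs. D3. Within cows, library size scaling, added after seeing the data, gave -0.32 for SREBF1 and -0.94 for PPARGC1A in D3 vs. D-3 and -0.19 for PRKAA2 in D25 vs. D-3, no longer past an exact p of 0.05. It gave 0.55 for SREBF1 and 0.30 for PRKAA2 in D25 vs. D3, now past it, and turned SREBF1 to 0.23 in D25 vs. D-3 and THRB to 0.0538 in D25 vs. D3.

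With the samples of the compared days alone, calls were lost for PPARGC1A in D3 vs. D-3 (-2.27), for INSIG1 (-3.21), PPARGC1A (-2.54), KLF15 (-1.66), THRB (-1.43) and PRKAA2 (-1.32) in D7 vs. D-3, and for SREBF1 in D14 vs. D-3 (-0.83). INSIG1 in D25 vs. D3 gained a call there (-1.39), with DESeq2 (-1.39) and with tagwise dispersions (-1.38). SREBF1 in D7 vs. D-3 gained a call with TMM without milk protein genes (-0.79), treatment as a covariate (-0.81), tagwise dispersions (-0.79), a replicate block for each cow (-0.80), without cows 8513 and 8660 (-1.04) and with DESeq2 (-0.79). The block changed no other call of a regulator. PRKAA2 in HT vs. CL at D7 turned to -0.0113 without cows 8513 and 8660. Leaving out each cow gave -0.94 to -0.61 for SREBF1 in D7 vs. D-3 (called without 8314, 8513, 8660 or 8686), -1.13 to -0.68 in D14 vs. D-3 and -0.88 to -0.52 in D25 vs. D-3 (called without 8314 or 8513), and -1.47 to -1.07 for PRKAA2 in D7 vs. D-3 (lost without 8564, the value of -1.07). The cause of these changes was not tested.

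Of all loci, those called lower in D3 vs. D-3 numbered 1330, 175 with library size scaling and 520 with the 2 days alone. For D7, D14 and D25 vs. D-3 the counts were 1048, 1658 and 1348, with 18, 167 and 185 under library size scaling and 0, 552 and 712 with the 2 days alone. The loci called in D7 vs. D3 were 430, with 36 under library size scaling, 648 with tagwise dispersions, 716 with DESeq2 and 881 with the block, and in D25 vs. D3 they were 886, 174 under library size scaling and 1767 with the block. PPARGC1A, with 5 to 713 reads a library, is the regulator most limited by depth.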
